A study of Arabidopsis thaliana with 11 samples.

Results

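The 10 genes described here, of 20971 in the table, are core genes of the Arabidopsis circadian clock. They were chosen by locus identifier and not by their values, though with earlier results of these data known. They are CCA1 (AT2G46830), LHY (AT1G01060), PRR9 (AT2G46790), PRR7 (AT5G02810), PRR5 (AT5G24470), PRR3 (AT5G60100), TOC1 (AT5G61380), GI (AT1G22770), ELF3 (AT2G25930) and ELF4 (AT2G40080). RNA-seq was done on inflorescences of Landsberg plants that carry the transgene pAP1:AP1-GR and the mutations ap1-1 and cal-1. In them AP1 fused to the hormone-binding part of the glucocorticoid receptor is made from the AP1 promoter, and the double mutant forms inflorescence-like meristems in place of flowers. Dexamethasone (DEX) switches the fusion protein on and starts flowers in synchrony. Inflorescences were taken from untreated plants (day 0, 3 libraries) and from plants given DEX daily and harvested 2 days (2 libraries), 4 days (3 libraries) and 8 days (3 libraries) after the first treatment, 11 libraries in all. All groups carry the transgene and both mutations. No plants without DEX were sampled after day 0, so flower stage, DEX treatment and plant age cannot be told apart.

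The hour of harvest bears on every value for these genes. Plants grew in days of 16 h light and 8 h dark, and per the study's methods all material was taken after 8 h of light. Transcripts of clock genes rise and fall within each day, so a sample taken at a single hour reads 1 point of each rhythm, and a change in the amount of a transcript and a shift in the timing of its rhythm cannot be told apart. DEX was given after 8 h of light on the first day and after 4 h of light on later days, so the later samples were also treated some hours before harvest on a daily schedule that day 0 plants had not had. Each replicate pooled 5 inflorescences per the methods, so cell types are mixed, and fewer cells that express a gene and less RNA per cell cannot be told apart.

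As background, the plant clock is a ring of repressors that act in turn through the day. CCA1 and LHY are MYB transcription factors made around dawn that repress evening genes. The pseudo-response regulators PRR9, PRR7 and PRR5 are made one after another from morning to afternoon and repress CCA1 and LHY. TOC1, itself a pseudo-response regulator (PRR1), acts near dusk and also represses CCA1 and LHY, while PRR3 binds TOC1 and shields it from breakdown. GI is a large protein that stabilises the F-box protein ZTL, which marks TOC1 and PRR5 for breakdown, and that works with FKF1 to allow CO expression in long days. ELF3 and ELF4 join with the DNA-binding protein LUX in the evening complex, a night repressor of PRR9, PRR7 and LUX itself. In flowering, the clock is best known for timing the day-length response in leaves.

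The values are FPKM, read fragments scaled to the length of the transcript and to the mapped total of the library, so levels of different genes can be set side by side. Tests were run with limma on log2(FPKM + 1) over the 19278 genes that reached 1 FPKM in 2 or more libraries, and all 10 clock genes passed that filter. A gene is said to have risen or fallen only where the Benjamini-Hochberg adjusted p was under 0.05 and the difference was at least 2-fold in FPKM + 1. All log2 differences below are on that scale, later day minus earlier day, which understates the change of genes at low FPKM. The sequencing depth behind the FPKM values is unknown. Where libraries of 2 days do not overlap, this is given as a description, because it is common over all genes tested. Every library was above every day 0 library for 18.9% of genes at day 2, 21.8% at day 4 and 29.1% at day 8. Every library was below every day 0 library for 18.1%, 22.9% and 46%. The day 8 libraries differed more among themselves than the others, with a pooled SD of 0.338 on the log2 scale over all tested genes, against 0.159 at day 0, 0.230 at day 2 and 0.165 at day 4. As a check of the tissue label, all 6 floral organ identity markers (AP3, PI, AG, SEP1, SEP2 and SEP3) rose between day 0 and day 8, and their summed level was 433 to 568 FPKM at day 8, against 24.5 to 35.6 FPKM at day 0.

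The short regulatory sequences through which clock proteins act are shown first, because the results group the genes by their place in the daily ring. Clock genes are known for a few DNA motifs: the evening element AAAATATCT and the related CCA1-binding site AAAAATCT, both bound by CCA1 and LHY; the LUX-binding site GATTCG; and the G-box CACGTG, bound by light-signalling factors of the PIF family and by HY5. These exact letters were searched on both strands in the 500 bases upstream of each annotated gene start in the Columbia reference (TAIR10.1, RefSeq annotation), and the plants here were Landsberg, so single bases may differ. None of the 4 motifs contains another, and no pair of the 13 matches found shared a base. The G-box stood upstream of 4 of the 10 genes (CCA1, LHY, PRR9 and PRR7), against 10.4% of the 20866 genes with such a window. The evening element stood upstream of 2 of 10 (PRR5 and TOC1), against 4.45% of genes. The CCA1-binding site stood upstream of 3 of 10 (LHY, PRR9 and PRR5), against 12.3% of genes, and the LUX-binding site upstream of 2 of 10 (PRR9 and TOC1), against 16.4% of genes. These counts are descriptions of letters in the reference, and binding was not measured. No match was found upstream of PRR3, GI, ELF3 or ELF4 in this window. The sequences around the G-box of the 4 genes of the morning side, and around the evening elements of PRR5 and TOC1, follow, each read 5′ to 3′ on the strand of its gene, with the motif in capitals; AGATATTTT is the evening element read from the other strand.
CCA1, G-box, chr2:19245386-19245415, strand +: tagtgtatcagaCACGTGtcgacaaactgg
LHY, G-box, chr1:37934-37963, strand -: ctacaatatcacCACGTGtcgatctgcgat
PRR7, G-box, chr5:642214-642243, strand -: tacccaccattaCACGTGtcagttcaaaaa
PRR5, evening element farther from the start, chr5:8358819-8358848, strand -: caattctactAGATATTTTttcaaatccaa
PRR5, evening element nearer the start, chr5:8358714-8358743, strand -: gattttttctAGATATTTTcttttctccac
TOC1, evening element, chr5:24674802-24674831, strand +: aaatatcatgAGATATTTTctccaagatga
In CCA1, LHY and PRR7, and in the G-box of PRR9 that is farther from the start, the letters right after the motif are tc, while in the nearer G-box of PRR9 they are tt. The whole stretch of 250 bases before the start of PRR9 is given because PRR9 is the member that rose and because it holds 3 matches, a pair of G-boxes and, nearer the start, the LUX-binding site (CGAATC, read from the other strand), all in capitals.
PRR9, 250 bases upstream, chr2:19232357-19232606, strand +: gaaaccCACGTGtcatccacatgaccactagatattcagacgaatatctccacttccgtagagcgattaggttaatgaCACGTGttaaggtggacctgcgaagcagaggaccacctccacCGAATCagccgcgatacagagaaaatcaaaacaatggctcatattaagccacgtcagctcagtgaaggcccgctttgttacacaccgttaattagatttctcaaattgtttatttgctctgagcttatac

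**Figure D1:**
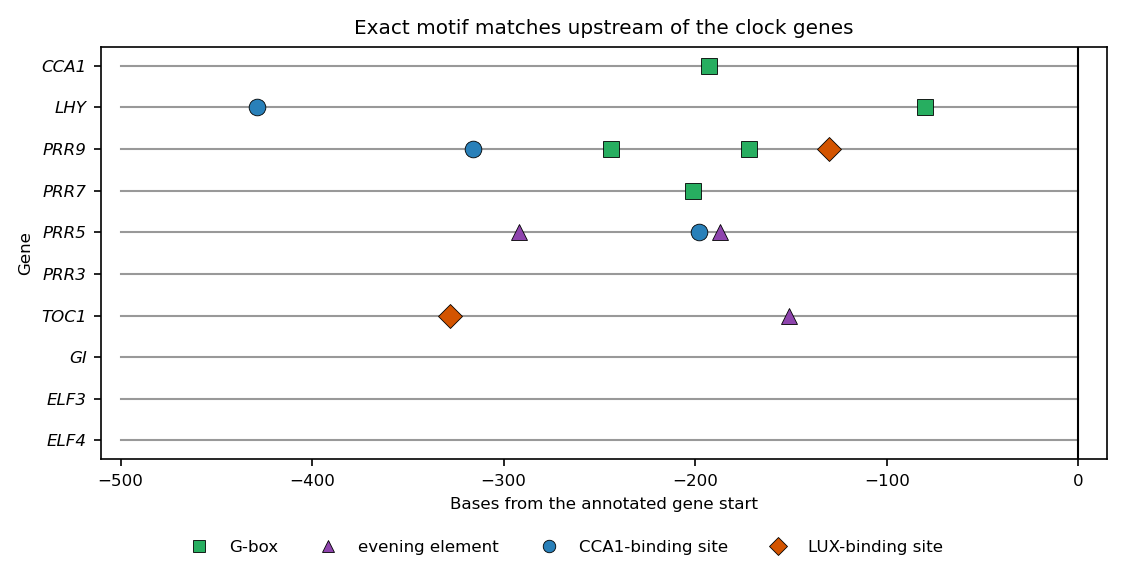
Positions of exact motif matches in the 500 bases upstream of the annotated start of each clock gene (x axis, bases from the start; 1 row a gene; squares, G-box; triangles, evening element; circles, CCA1-binding site; diamonds, LUX-binding site). The G-box lies 193, 80 and 201 bases upstream of CCA1, LHY and PRR7, PRR9 has 2 of them at 244 and 172 bases, and 4 rows hold no match.

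The levels of the 10 genes at this hour fell into a high, a middle and a low group. TOC1 was the highest at each day, at 115 ± 15.1 FPKM at day 8 and 118 ± 6.69 FPKM at day 0 (SD, n = 3 each). PRR7 came next at each day, at 90.7 ± 10.5 FPKM at day 8 and 109.7 ± 9.26 FPKM at day 0, and its libraries overlapped those of TOC1 at each of the 4 days. ELF3, ELF4, GI, PRR5 and PRR3 made up the middle group, between 38.2 ± 1.26 FPKM for PRR3 and 48.9 ± 0.463 FPKM for ELF3 at day 0. CCA1, LHY and PRR9, the genes of the dawn and early morning, stayed at or under 10.9 FPKM in every library. The libraries of CCA1 and LHY overlapped at each day, and the ratio of CCA1 over LHY averaged between 1.02 (day 2) and 1.11 (day 4). The order within the middle group changed over the course. ELF3, ELF4 and GI stood side by side at day 0 with overlapping libraries, while at day 8 ELF3 and PRR5 were set apart above ELF4 and GI, and PRR3 was set apart below all 4.

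In the test over the 4 days, 2 of the 10 clock genes passed the test, PRR9 and PRR3, against 32.8% of all genes tested. In the course, PRR9 was highest at day 8 and PRR3 was lowest at day 8. The 2 genes moved in opposite directions. The comparison of day 8 with day 0 gave the same 2 genes, with PRR9 up and PRR3 down, against 29.4% of all genes past the test in either direction. By the adjusted p alone, with no minimum on the size, 7 of 10 clock genes differed between day 8 and day 0 (CCA1, LHY, PRR9, PRR5, PRR3, GI and ELF4), against 74% of all genes tested. The median log2 difference over the 10 clock genes was 0.04 and over all genes tested -0.19, and the median size of the difference without its sign was 0.54 for the clock genes and 0.61 for all genes. Rescaling the libraries by the median ratio of their genes moved the all-gene median to -0.0084 and raised every day 8 difference by about that shift. PRR9 and PRR3 kept their calls against day 0, at 1.2 and -1.16.

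**Figure D2:**
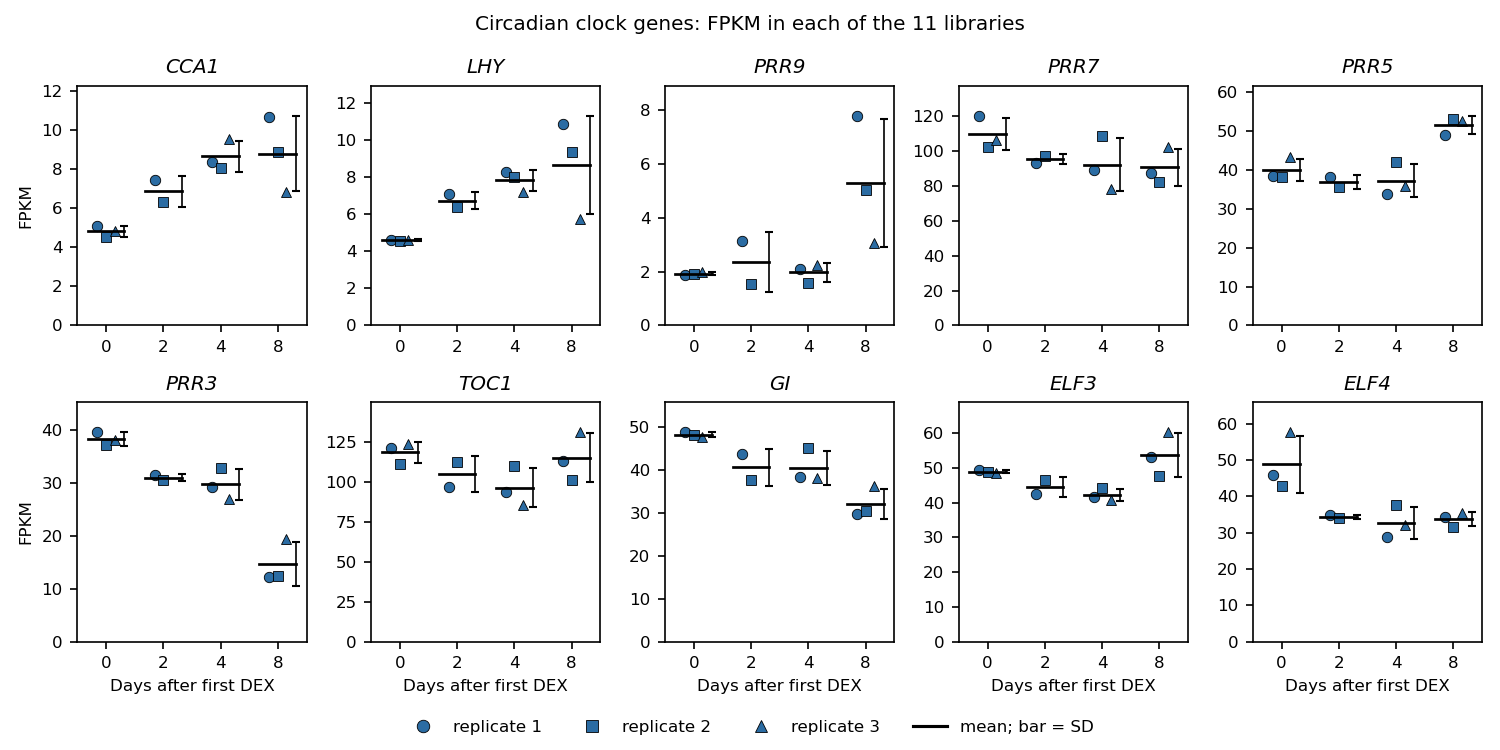
FPKM (y axis, from 0, own scale for each gene) of the 10 clock genes in each library by days after the first DEX treatment (x axis); points are libraries, marked by replicate number, lines are means and bars are SD. CCA1 and LHY stand lowest at day 0, PRR9 is higher at day 8 with widely spread libraries, and PRR3 drops to between 12.2 and 19.4 FPKM at day 8.

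The dawn MYB genes stood higher at each later day than at day 0, by less than 2-fold. CCA1 had 5.10, 4.52 and 4.84 FPKM at day 0, then 7.42 and 6.31 FPKM at day 2, 8.35, 8.05 and 9.51 FPKM at day 4, and lastly 10.7, 8.87 and 6.82 FPKM at day 8. LHY had 4.64, 4.56 and 4.61 FPKM at day 0, then 7.07 and 6.42 FPKM at day 2, 8.26, 8.02 and 7.21 FPKM at day 4, and lastly 10.9, 9.37 and 5.75 FPKM at day 8. For both genes every library of days 2, 4 and 8 lay above every library of day 0, and replicate 3 of day 8 was the lowest of its day. CCA1 was higher at day 4 than at day 0 by 0.73 ± 0.14 (SE) on the log2 scale, with an adjusted p of 0.0106, and LHY by 0.65 ± 0.18, with an adjusted p of 0.0426. At day 8 the differences from day 0 were 0.73 ± 0.14 for CCA1, with an adjusted p of 0.000773, and 0.75 ± 0.18 for LHY, with an adjusted p of 0.00253. None of these reached the 2-fold minimum. Day 8 and day 4 could not be told apart for either gene: the difference was 0.01 for CCA1, with a 95% confidence interval from -0.31 to 0.32, and 0.09 for LHY, with an interval from -0.29 to 0.48. With the spread shared over all 11 libraries, the day 4 result hung on few libraries. Without replicate 3 of day 4 the adjusted p of CCA1 was 0.0549. For LHY, leaving out any single library of days 0, 2 or 4 brought it over 0.05, up to 0.144. That shared spread includes the day 8 libraries, which differed most among themselves. Without them, or with only the 2 days compared, the adjusted p of both genes at day 4 stayed under 0.05. Median-ratio rescaling brought LHY at day 4 over 0.05. At day 2 against day 0 the adjusted p was 0.314 for CCA1 and 0.396 for LHY. Without the day 8 libraries it was 0.0285 for LHY, and for CCA1 it stayed over 0.05. For LHY at day 2, 19 of 20 alternatives were not under 0.05.

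PRR9, the first of the pseudo-response regulators in the daily order, rose at day 8. It had 1.86, 1.92 and 1.97 FPKM at day 0, then 3.14 and 1.56 FPKM at day 2, 2.11, 1.58 and 2.25 FPKM at day 4, and lastly 7.78, 5.03 and 3.04 FPKM at day 8. All 3 libraries of day 8 were above those of day 0 and day 4, though replicate 3 of day 8, at 3.04 FPKM, was below replicate 1 of day 2, at 3.14 FPKM. The difference was 1.04 ± 0.26 (SE) on the log2 scale between day 8 and day 0, with an adjusted p of 0.00389, and 1.01 ± 0.26 between day 8 and day 4, with an adjusted p of 0.005. In plain FPKM the day 8 mean was 2.76 times the day 0 mean. Between day 8 and day 2 it was higher by 0.88 ± 0.29, under the 2-fold minimum, with an adjusted p of 0.0191. PRR9 is at the edge of the call: without replicate 1 of day 8, its highest library, the difference from day 0 was 0.76, with an adjusted p of 0.013, and no longer 2-fold. The difference from day 4 was under 2-fold without replicate 1 of day 8 (0.74) or replicate 2 of day 4 (0.91). PRR9 and CCA1 are neighbours on chromosome 2, at chr2:19232607-19235179 and chr2:19245591-19248915 in TAIR10.1, both on the + strand, with 3 genes in the 10411 bases between them.

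PRR7, the regulator of midday, gave no difference past the test in any comparison. It had 120.2, 102 and 107 FPKM at day 0, then 93.3 and 97.3 FPKM at day 2, 89.4, 108 and 78.4 FPKM at day 4, and lastly 87.5, 82.2 and 102 FPKM at day 8. The day 8 libraries lay below those of day 0, but barely, with the highest at 102.4 FPKM and the lowest of day 0 at 102.48 FPKM. The difference was -0.28 ± 0.12 (SE), with an adjusted p of 0.0593. PRR5, the regulator of the afternoon, was set higher at day 8. PRR5 had 38.3, 38.1 and 43.1 FPKM at day 0, then 38.0 and 35.6 FPKM at day 2, 33.8, 41.9 and 35.7 FPKM at day 4, and lastly 48.9, 53.1 and 52.5 FPKM at day 8. The 3 libraries of day 8 were above every other library, while those of days 0, 2 and 4 overlapped. Its difference from day 0 was 0.36 ± 0.09, with an adjusted p of 0.00349, and from day 4 it was 0.46 ± 0.09, with an adjusted p of 0.000814, both under the 2-fold minimum.

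PRR3, the partner of TOC1, fell, and at day 8 against day 0 it had the largest difference of the members in log2(FPKM + 1) before rescaling. It had 39.6, 37.1 and 38.0 FPKM at day 0, then 31.4 and 30.5 FPKM at day 2, 29.2, 32.8 and 26.9 FPKM at day 4, and lastly 12.2, 12.5 and 19.4 FPKM at day 8. The libraries of days 2 and 4 lay between the others, below every day 0 library and above every day 8 library. Against day 0 the adjusted p of PRR3 was 0.561 at day 2 and 0.163 at day 4. PRR3 fell by 1.35 ± 0.15 (SE) on the log2 scale at day 8 against day 0, with an adjusted p of 1.03e-05, and by 1.06 ± 0.17 at day 8 against day 2, with an adjusted p of 0.000189. The difference between day 8 and day 4 was -0.99 ± 0.15, with an adjusted p of 0.000132, just under the 2-fold minimum. Without replicate 3 of day 8, in which PRR3 was highest of its day, the difference from day 0 was -1.56. TOC1, its partner, showed no such difference. TOC1 had 121, 111 and 124 FPKM at day 0, then 96.9 and 113 FPKM at day 2, 93.6, 109.9 and 85.5 FPKM at day 4, and lastly 113, 101 and 131 FPKM at day 8. The day 8 and day 0 libraries of TOC1 overlapped, with a difference of -0.05 and a 95% confidence interval from -0.30 to 0.21 (0.16 after the median-ratio rescaling, so its sign depends on the scaling). At day 4 it was lower than at day 0 by 0.30 ± 0.12, with an adjusted p of 0.137.

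Ratios taken within each library set the pairs against each other and are not changed by a single scale factor for a library. The columns look quantile-normalised, as described below, and such a step can change the ratio of a high gene to a low one. The ratio of PRR5 over PRR3 was 4.02, 4.26 and 2.70 at day 8, against 0.968, 1.03 and 1.13 at day 0, where the pair stood near level. TOC1 stood 23.7, 24.6 and 25.5 times above CCA1 at day 0, 13.1 and 17.9 times at day 2, 11.2, 13.7 and 8.99 times at day 4, and 10.6, 11.4 and 19.2 times at day 8. In every later library the dawn MYB gene and the dusk gene were closer in level than in any day 0 library. No test was run on the ratios.

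GI, which links the clock to flowering in long days, was lower at each later day, by less than 2-fold. GI had 48.9, 48.2 and 47.7 FPKM at day 0, then 43.8 and 37.7 FPKM at day 2, 38.3, 45.1 and 38.2 FPKM at day 4, and lastly 29.8, 30.5 and 36.2 FPKM at day 8. No library of a later day reached the lowest day 0 library, and the 3 libraries of day 8 were below all others. Against day 0 the adjusted p of GI was 0.434 at day 2 and 0.139 at day 4. The difference at day 8 against day 0 was -0.58 ± 0.10 (SE), with an adjusted p of 0.000277. It was -0.32 ± 0.10 at day 8 against day 4, with an adjusted p of 0.0117, and that p was 0.0558 without replicate 2 of day 4. After the median-ratio rescaling the difference was -0.12, with an adjusted p of 0.249.

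The evening complex members differed in their course. ELF3, the scaffold protein of the complex, had 49.4, 48.8 and 48.5 FPKM at day 0, then 42.5 and 46.5 FPKM at day 2, 41.6, 44.1 and 40.7 FPKM at day 4, and lastly 53.2, 47.7 and 60.3 FPKM at day 8. Its day 4 libraries were all below those of day 0, and 2 of its 3 day 8 libraries were above them. ELF3 was higher at day 8 than at day 4 by 0.34 ± 0.09 (SE), with an adjusted p of 0.00459, and day 8 differed from day 0 by 0.13 ± 0.09, with an adjusted p of 0.201. The ELF3 locus, chr2:11058944-11063324 on the + strand in TAIR10.1, overlaps AT2G25940 and an antisense RNA, AT2G08135, on the other strand. The library kit kept strand, but whether the counting used it is not given in the sources used here, so reads of these genes may be mixed. ELF4, a small protein that helps bring ELF3 into the nucleus, had 46.0, 42.9 and 57.7 FPKM at day 0, then 34.8 and 34.0 FPKM at day 2, 28.7, 37.5 and 32.1 FPKM at day 4, and lastly 34.3, 31.6 and 35.3 FPKM at day 8. All later libraries lay below all day 0 libraries, and the 3 later days overlapped. The difference from day 0 was -0.48 ± 0.13 at day 2, with an adjusted p of 0.159, then -0.56 ± 0.12 at day 4, with an adjusted p of 0.0164, and -0.51 ± 0.12 at day 8, with an adjusted p of 0.00252. ELF4 at day 4 rested in part on single libraries, as the adjusted p was up to 0.0756 without replicate 3 of day 0, replicate 1 of day 4 or replicate 3 of day 4.

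**Figure D3:**
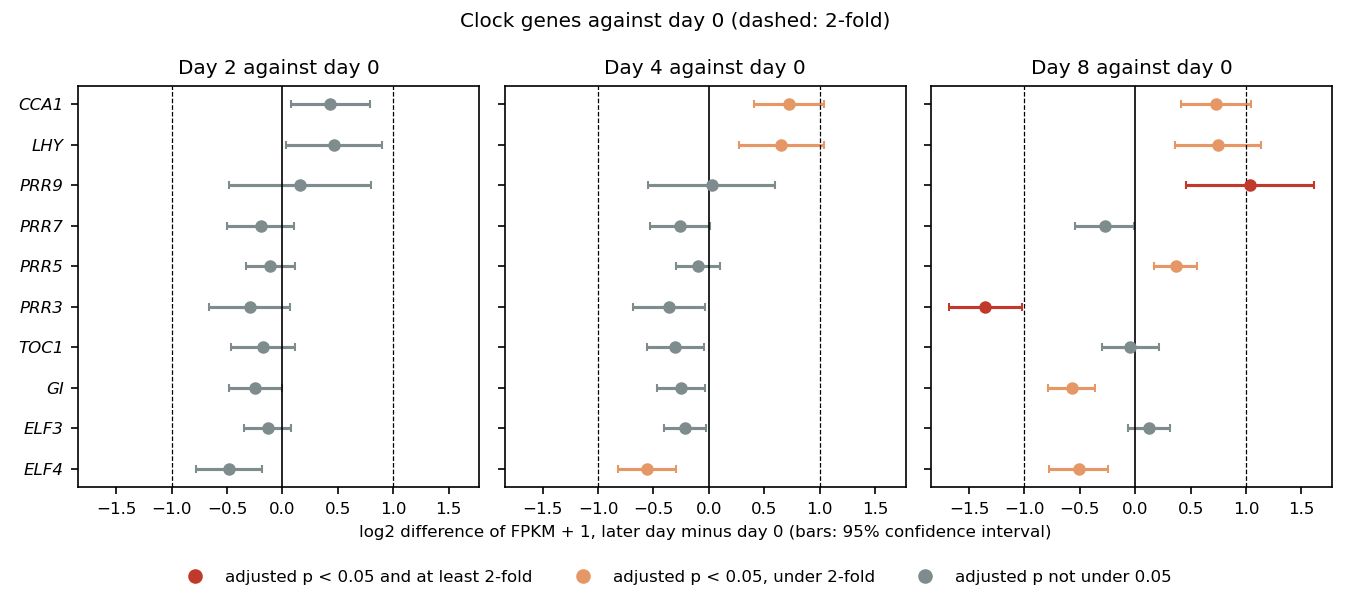
Log2 difference of FPKM + 1 between day 2, day 4 or day 8 and day 0 (x axis, with 95% confidence intervals from limma) for each clock gene. Only PRR9 and PRR3 at day 8 pass both the adjusted p and the 2-fold minimum (dashed lines); CCA1, LHY and ELF4 already pass the adjusted p at day 4.

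In the early steps no clock gene passed the test. Between day 2 and day 0, none of the 10 was called by limma, against 0.337% of all genes, and 4 had an unadjusted p under 0.05 (CCA1 and LHY higher, GI and ELF4 lower), against 11.3% of all genes. Between day 4 and day 0, none was called, against 2.21% of all genes, 3 passed by the adjusted p alone (CCA1 and LHY higher, ELF4 lower), against 8.99% of all genes, and 7 had an unadjusted p under 0.05, against 24.5% of all genes. Between day 4 and day 2, none was called, against 0.368% of all genes, and none had an unadjusted p under 0.05. In the late steps, 1 of 10 was called between day 8 and day 2 (PRR3, lower), against 27.6% of all genes, and 1 of 10 between day 8 and day 4 (PRR9, higher), against 23.4% of all genes. By the adjusted p alone, 5 of 10 differed in each of these late steps, against 70.1% of all genes in both. PRR5, ELF3, PRR9, PRR3 and GI were those 5 in both steps, but after the median-ratio rescaling GI lost the adjusted p in both (0.271 against day 2 and 0.249 against day 4) while TOC1 gained it. ELF3 against day 2 lost it with the replicate number as a block (0.0699). Single libraries also moved these counts: by the adjusted p alone, 0 genes were left between day 4 and day 0 without replicate 3 of day 4, 1 (CCA1) without replicate 3 of day 0 or replicate 1 of day 4, and 3 between day 8 and day 2 without replicate 1 of day 2 or replicate 1 of day 8. PRR3 was under 2-fold between day 8 and day 2 without replicate 1 or 2 of day 8, and PRR9 joined it as called without replicate 1 of day 2 or replicate 3 of day 8. Between day 8 and day 4, no gene was called without replicate 1 of day 8 or replicate 2 of day 4, and PRR3 joined PRR9 as called without replicate 1 or 3 of day 4 or replicate 3 of day 8.

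Libraries of the same day also differed in their clock genes. At day 8, replicate 3 had the lowest value of its day for CCA1, LHY and PRR9, and the highest for PRR7, PRR3, TOC1, GI, ELF3 and ELF4. Replicate 1 of day 8 was the highest of its day for CCA1, LHY and PRR9. At day 2, replicate 1 was above replicate 2 for CCA1, LHY, PRR9, PRR5, PRR3, GI and ELF4 and below it for PRR7, TOC1 and ELF3. At day 0, replicate 1 was the highest for CCA1, LHY, PRR7, PRR3, GI and ELF3 and replicate 2 the lowest for 7 of the 10 genes, so the genes did not group in the same way at every day. At day 4, replicate 2 had the lowest CCA1 and PRR9 and the highest PRR7, PRR5, PRR3, TOC1, GI, ELF3 and ELF4, while LHY was lowest in replicate 3. With the day means removed, the log2 values of CCA1 over the 11 libraries correlated with those of PRR9 at r = 0.93 and of LHY at r = 0.80, and with those of PRR3 at r = -0.81. TOC1 correlated with PRR7 at r = 0.89 and with ELF3 at r = 0.88. These coefficients are descriptions over 11 libraries, which share the normalisation of 1 table, and carry no test. With the day means removed fewer than 11 values are free, and the 2 libraries of day 2 mirror each other. Deviations of PRR9 were largest at day 8 (0.553 in replicate 1 and -0.565 in replicate 3) and ran from -0.028 to 0.026 at day 0. Within-day differences of this kind entered the error of every test above, and the minute of harvest of each library is not given in the sources used here.

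**Figure D4:**
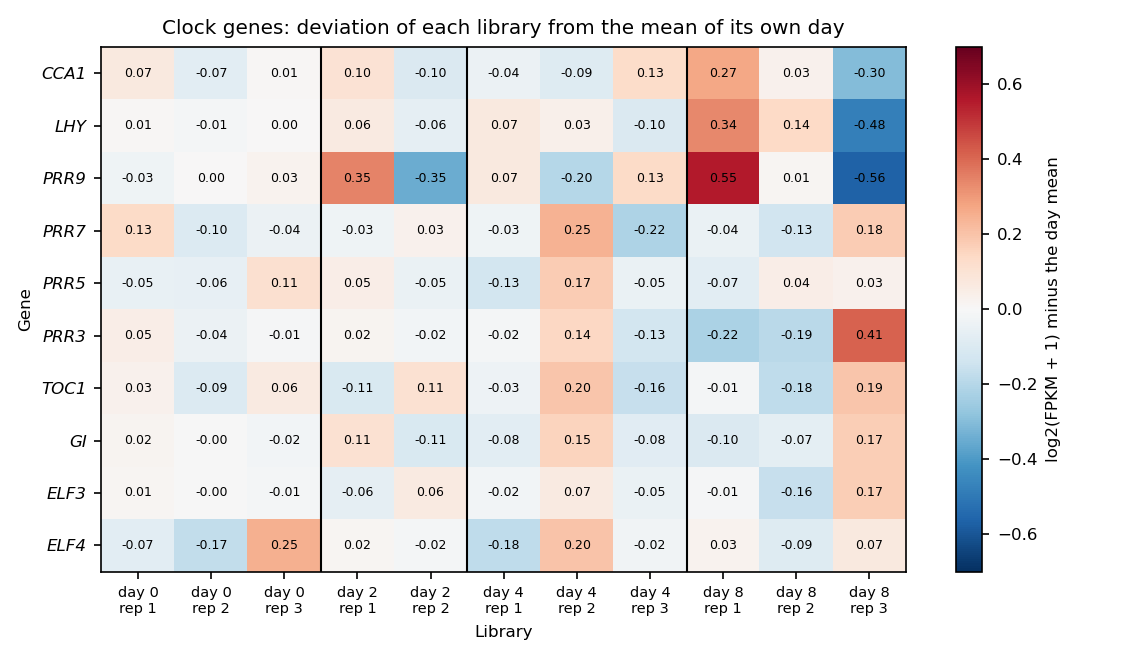
Deviation of each library (columns) from the mean of its own day in log2(FPKM + 1), for each clock gene (rows; red, above the day mean; blue, below). At day 8, replicate 1 is above the mean for CCA1 (0.27), LHY (0.34) and PRR9 (0.55) and replicate 3 is below it (-0.30, -0.48 and -0.56), with the signs turned for PRR3 (-0.22 and 0.41).

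The other genes of the clock were taken from lists that, like the members, were chosen with earlier results of these data known. Several showed larger differences than any of the 10 members. Of 12 relatives and partners of CCA1 and LHY, 4 rose and none fell between day 8 and day 0, and of all genes tested 14.2% rose and 15.2% fell. Over the list 4 of 12 were called in either direction, a share near the 29.4% of all genes, and the median difference was 0.43, against -0.19 over all genes. RVE1, a MYB factor close to CCA1 that links the clock to auxin, had 24.9, 31.4 and 26.0 FPKM at day 8, against 2.73, 3.70 and 3.39 FPKM at day 0, a log2 difference of 2.73 ± 0.15 (SE). RVE2, a further member of that family, had 56.2, 89.8 and 47.4 FPKM at day 8, against 9.55, 8.88 and 9.73 FPKM at day 0, a difference of 2.60 ± 0.21. LNK3 and LNK4, of a family of light-induced partners of the RVE factors, rose by 2.1 ± 0.21 and 2.41 ± 0.20. RVE8, which activates evening genes such as PRR5 and TOC1, was higher by 0.28 ± 0.18, with an adjusted p of 0.175, and LNK1 differed by -0.09 ± 0.11, with an adjusted p of 0.48. The differences of RVE1, RVE2, LNK3 and LNK4 were larger than those of CCA1 (0.73) and LHY (0.75) in the same libraries, though the contrast between genes was not tested.

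The DNA-binding partners of ELF3 and ELF4 were higher at day 8. LUX had 43.5, 37.5 and 42.9 FPKM at day 0, then 29.2 and 34.2 FPKM at day 2, 29.1, 35.0 and 28.1 FPKM at day 4, and lastly 85.4, 76.0 and 71.1 FPKM at day 8. LUX was first lower and then higher: -0.42 ± 0.11 at day 4 against day 0, with an adjusted p of 0.0374, and 0.89 ± 0.11 at day 8 against day 0, with an adjusted p of 2.23e-05, both under the 2-fold minimum, and it rose by 1.31 ± 0.11 at day 8 against day 4, with an adjusted p of 1.97e-06. BOA (AT5G59570), a close relative of LUX, had 18.9, 33.1 and 23.3 FPKM at day 8, against 7.26, 7.01 and 8.28 FPKM at day 0, and rose by 1.58 ± 0.18. Of the 5 genes of this list that were tested, 1 rose and none fell between day 8 and day 0, against 29.4% of all genes called, and after the median-ratio rescaling LUX (1.09) was past the minimum too. Of the 3 components of the complex, LUX and ELF4 stood on opposite sides of their day 0 levels at day 8, and ELF3 overlapped its day 0 level.

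Of 16 genes for protein turnover and other clock regulation, none rose and 2 fell between day 8 and day 0, against 29.4% of all genes called. CHE, a TCP factor known to repress CCA1, had 12.1, 11.1 and 7.70 FPKM at day 8, against 19.8, 25.1 and 20.2 FPKM at day 0, and fell by 1.02 ± 0.17 (SE), with an adjusted p of 0.000223, though it was under 2-fold without replicate 3 of day 8 (-0.84) or without replicate 2 of day 0 (-0.91). JMJ30, a histone demethylase gene of the evening, had 8.26, 5.87 and 14.3 FPKM at day 8, against 27.6, 29.5 and 33.5 FPKM at day 0, and fell by 1.65 ± 0.24. ZTL, the F-box protein that GI stabilises, was higher by 0.28 ± 0.10, with an adjusted p of 0.0272, and its relative FKF1 was lower by 0.47 ± 0.13, with an adjusted p of 0.00556, both under the 2-fold minimum.

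Of 14 tested genes of light input, 3 rose and 1 fell, a share near the 29.4% of all genes called. The far-red receptor gene PHYA rose by 1.40 ± 0.12 (SE), the blue light receptor gene CRY2 by 1.39 ± 0.16 and PIF5 by 1.68 ± 0.10 between day 8 and day 0. PIF4, at 2.85, 1.98 and 1.52 FPKM at day 8, against 6.36, 5.55 and 3.81 FPKM at day 0, fell by 1.00 ± 0.22, with an adjusted p of 0.00191, at the edge of the 2-fold minimum, and without replicate 3 of day 8 the difference was -0.86. PIF4 and PIF5 are close relatives that promote growth at night in seedlings, and here they differed in opposite directions.

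Of 15 tested clock output genes, 5 rose and 3 fell at day 8 against day 0, against 29.4% of all genes called. COL1, a relative of CO, had 56.9, 62.9 and 60.4 FPKM at day 8, against 4.70, 4.12 and 4.35 FPKM at day 0, and rose by 3.50 ± 0.11 (SE). CDF2, a repressor of CO, rose by 2.62 ± 0.11. CDF1, of the same family and function, had 0.274, 0.0582 and 0.144 FPKM at day 8, against 1.67, 1.95 and 1.15 FPKM at day 0. Outside day 0 it reached 1 FPKM only in replicate 2 of day 2, at 1.11 FPKM. CDF1 thus passed the filter on low values through day 0, so its test is not used, though it is counted among the 3 that fell. AT1G69570, a Dof-type zinc finger gene, rose by 1.26 ± 0.20. The catalase genes CAT3, which peaks in the evening, and CAT2, which peaks in the morning, rose by 1.09 ± 0.21 and 1.18 ± 0.13, and CAT3 was under 2-fold (0.94) without replicate 3 of day 8. GRP7, an RNA-binding protein gene of the evening with 3 evening elements near its start, had 803, 699 and 1252 FPKM at day 8, against 2204, 3114 and 3114 FPKM at day 0, and fell by 1.64 ± 0.23. CBF3, a cold response factor gated by the clock, had 0.544, 0.384 and 0.265 FPKM at day 8, against 4.30, 4.13 and 4.14 FPKM at day 0, and fell by 1.90 ± 0.19. GRP8 and BBX18 passed the test among the 4 days, but their differences at day 8 against day 0, of -0.87 ± 0.14 and -0.89 ± 0.21, were under the 2-fold minimum.

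**Figure D5:**
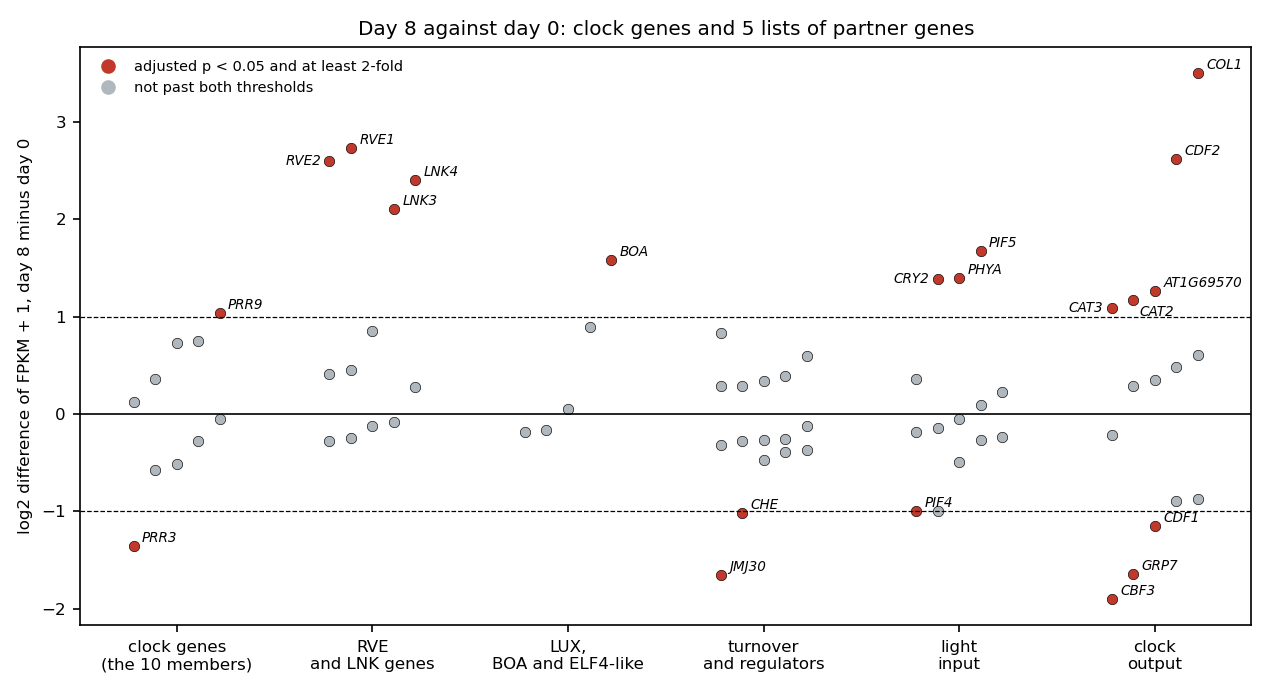
Log2 difference of FPKM + 1 between day 8 and day 0 (y axis; dashed lines, 2-fold) for the 10 clock genes and 5 lists of partner genes, 1 point a gene; red points pass the adjusted p and the 2-fold minimum and are named. RVE1, RVE2, LNK3 and LNK4 (2.1 to 2.73) and COL1 (3.50) lie above PRR9, the highest of the 10 members at 1.04.

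Some members and list genes were regrouped by the hour at which they are known to peak. At day 8 against day 0, 6 of 14 dawn genes rose (PRR9, RVE1, RVE2, LNK3, LNK4 and COL1), with a median of 0.74. The 1 counted as fallen was CDF1, whose test is not used. Of 12 afternoon and evening genes, 2 rose (BOA and CAT3) and 3 fell (PRR3, JMJ30 and GRP7), with a median of -0.49. All of these genes were described above, so the regrouping adds no new observation. CAT2 and CDF2, which rose, and PRR7 and ELF3 were in neither list. Over all genes 14.2% rose, 15.2% fell and the median was -0.19. At day 2 against day 0 none of either list was called. The 12 afternoon and evening genes were all lower at day 2 in their means, with a median of -0.29, against a median of 0.0028 over all genes, and the 14 dawn genes had 6 higher and 8 lower, with a median of -0.09. The genes of a list share day 0 and day 2 libraries, so their common sign is not 12 separate observations. Other lists were lower at day 2 as well: all 10 leaf and photosynthesis markers, with a median of -0.72 and a summed level of 3965 and 5087 FPKM at day 2, against 7099 to 7490 FPKM at day 0, and all 4 sugar starvation genes, with a median of -0.55. The largest part of the leaf sum was RBCS1A, at 2377 and 3114 FPKM at day 2 and the same 4498 FPKM in each day 0 library. The part of these lists in the day 2 values of the clock genes was not tested.

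Other signals moved together with day 8. The 4 sugar starvation and dark-inducible genes all rose, and their summed level was 1026 to 2184 FPKM at day 8, against 21.1 to 112 FPKM in the other 8 libraries. Of 10 leaf and photosynthesis markers, 6 fell between day 8 and day 0, with a summed level of 2616 to 3537 FPKM at day 8, against 7099 to 7490 FPKM at day 0, and none of the 10 was at 0. RBCS1A alone gave 1365, 1252 and 1752 FPKM at day 8 and 4498 FPKM in each day 0 library. Of 7 inflorescence and meristem markers, 2 rose (LFY and AP1) and 2 fell (STM and FD). WUS, CLV3 and TFL1 were lower in their means but not called, and AP1 reads may come from the transgene too. The summed level of the 7 was 362 to 496 FPKM at day 8, against 606 to 634 FPKM at day 0. The anther and tapetum markers in the table, 3 of 7, summed to 3.09 to 3.33 FPKM at day 8, against 0.289 to 0.746 FPKM in the other 8 libraries. Most of that day 8 sum was SPL/NZZ, which starts the sporogenous tissue. It had 1.94, 1.95 and 2.89 FPKM at day 8 and at most 0.0964 FPKM before. SPL/NZZ passed the filter on low values through day 8 alone, so its test is not used. TDF1 had 1.03, 1.07 and 0.196 FPKM at day 8, the last below its day 0 libraries. AMS was at 0.37 FPKM or less in every library. The part of these signals in the clock gene values was not tested. Within day 8 the sugar starvation sum was 1026 FPKM in replicate 1, where CCA1, LHY and PRR9 were highest, and 2085 and 2184 FPKM in replicates 2 and 3.

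For PRR9 and PRR3, the 2 members called among the 4 days, the genes with the most similar course over the 11 libraries were looked up among all genes tested. PRR9 was most like BPEp (AT1G59640), a bHLH gene of petal growth, at r = 0.97, AT5G59480 at r = 0.97 and AT5G24810 at r = 0.97. PRR3 was most like AGP27 (AT3G06360), an arabinogalactan protein gene, at r = 0.99, AUG7 (AT5G17620), of the augmin complex, at r = 0.99 and AT5G18460 at r = 0.99. Over the same libraries PRR3 and GI correlated at r = 0.95 and CCA1 and LHY at r = 0.94. The points share 4 days of 2 or 3 libraries each, and these values are given as descriptions.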

How the data were processed

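RNA was extracted from pooled inflorescences, libraries were made with a stranded total RNA kit, and 11 libraries were sequenced. Per the submitters' processing notes, reads were mapped with STAR to TAIR10 and expression was estimated with RSEM 1.2.22. The authors deposited the values as FPKM, 1 column a library. Sorted values agreed between columns (median spread 0.0848%) and column totals ran from 734615 to 734624, which is how quantile-normalised columns look; that step is not given in the sources used here. The depth is therefore unknown, and the precision rests on the number of libraries and the spread between them. The deposited mean FPKM columns, and the p-value and FDR columns of the authors' own comparison of the stages, were not used. Whether replicates were separate cultivations is not stated, so p-values measure the spread between these libraries.

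Values were read for all 20971 genes. The 19278 genes that reached 1 FPKM in 2 or more libraries were tested with limma 3.58.1 in R 4.3.3 on log2(FPKM + 1), with the 4 days as groups, all 11 libraries sharing 1 estimate of spread, a variance trend, and Benjamini-Hochberg adjustment over all genes tested. A call needed an adjusted p under 0.05 and a 2-fold difference, and confidence intervals are at 95%. An analysis of variance, the kind of test the study used, was run as an alternative on untransformed FPKM and on log2(FPKM + 1e-6), beside other pseudocounts, filters, scalings, a replicate block and leaving out single libraries. The script was tested on simulated data. Locus positions, upstream sequences and motif matches were looked up by locus identifier in TAIR10.1 (RefSeq), with all 10 members matched; the table itself holds no coordinates. All 10 members are named; of the lists, each gene called among the 4 days, the partners LUX, BOA, RVE8, LNK1, ZTL and FKF1, and for each member called the 3 genes most correlated over the 11 libraries. Members and lists were chosen with earlier results of these data known. The alternatives for list genes and for counts by the adjusted p alone, and the analysis of variance on log2 values, were added after the data were seen. Concentrations of DEX differ between the sources and are not given.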

Additional observations from a re-analysis of the deposited data

How the results depend on the processing

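Of the 10 clock genes, the number called among the 4 days (2) was 1 (PRR3) by the analysis of variance on untransformed FPKM, 2 by the same on log2(FPKM + 1e-6), and 1 to 2 when single libraries were left out. The number between day 8 and day 0 (2) was 1 to 2 without single libraries. The number between day 8 and day 2 (1) was 2 with a pseudocount of 0.1 or of 1e-6 and 0 to 2 without single libraries, and with median-ratio rescaling the call moved to PRR9 (1.04) while PRR3 was at -0.86. The number between day 8 and day 4 (1) was 2 with a pseudocount of 0.1 or of 1e-6 and 0 to 2 without single libraries. No clock gene was called between day 2 and day 0, day 4 and day 0, or day 4 and day 2 under any alternative run. By the adjusted p alone, the count between day 4 and day 0 (3) was 0 to 7 over the alternatives, with 7 when only the 2 days were compared. Between day 8 and day 2 the count (5) was 2 to 6.

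Deviations of libraries with the same replicate number correlated at -0.251 to 0.132 over 15 pairs, and those with other numbers at -0.204 to 0.251 over 30 pairs. Deviations of a day are tied to its mean, so these values cannot show whether replicate numbers pair the libraries. With the replicate block the counts of called clock genes were as without it, 2 among the 4 days. PRR5 between day 4 and day 2 turned to -0.00592 with the block.

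No called difference of a clock gene or of a list gene changed direction under any alternative. Median-ratio rescaling turned the uncalled differences of PRR7 between day 8 and day 2 (0.13) and day 4 (0.19), TOC1 between day 8 and day 0 (0.16) and ELF4 between day 8 and day 2 (0.17). Without single libraries, uncalled differences near 0 changed sign: between day 8 and day 4, CCA1 (-0.13 to 0.16), LHY (-0.076 to 0.33), PRR7 (-0.12 to 0.11) and ELF4 (-0.040 to 0.15); between day 8 and day 2, ELF4 (-0.060 to 0.019); between day 8 and day 0, TOC1 (-0.14 to 0.043); between day 4 and day 0, PRR9 (-0.042 to 0.13); between day 2 and day 0, PRR9 (-0.19 to 0.51); and between day 4 and day 2, PRR9 (-0.48 to 0.21), PRR7 (-0.18 to 0.047), PRR5 (-0.078 to 0.073), PRR3 (-0.14 to 0.00060), GI (-0.11 to 0.099) and ELF4 (-0.17 to 0.013). The cause of these changes was not tested. Of the list genes, CHE (-0.83) and PIF4 (-0.85) were under 2-fold after the rescaling and LUX (1.09) was past it; BBX18 was past it with a pseudocount of 0.1 or of 1e-6 and without replicate 1 of day 0 or replicate 1 of day 8 (-1.12). The groups of 2 or 3 libraries and the unknown depth limit what small differences can show.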
